A study of Rattus norvegicus with 23 samples.

Results

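The comparison described here asked whether the right and the left first lower molar of an experimental rat differed in gene expression in another way than the right and the left molar of a control rat, at 43 days of age. The series title speaks of unopposed molars, teeth whose opposing tooth no longer meets them. It used 12 of the 23 arrays, those labelled 43 days. The animals were male Wistar rats, described as 4 weeks old in the growth protocol, and every sample was periodontal ligament scraped from the roots of an extracted first mandibular molar. The control group held 3 right and 3 left molars, and the experimental group held 3 right and 3 left molars. No other drug, diet or allele is named for either group. Both molars of an experimental rat carry the label experimental, and no label names the unopposed side, so right and left are used here only as sides.

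Each array measured the RNA of 1 molar. The numeral in a sample's title, together with its condition, was taken as the animal, which gave control animals 4, 5 and 6 and experimental animals 4, 5 and 7. For every gene the left level was subtracted from the right level of the same animal, on the log2 scale, which gave 3 experimental and 3 control values. Such a value is called the side difference below. The contrast is the mean experimental side difference minus the mean control side difference, so that a positive contrast means that the right molar stood higher, relative to the left, in experimental than in control rats. Nothing in the labels says that the animals came from separate litters or cages, and p-values measure only the spread between these animals. The number of animals sets the precision, and an exact permutation test of 3 against 3 values cannot give a two-sided p below 0.1.

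The periodontal ligament is the thin connective tissue that ties the tooth root to the socket bone. Its fibroblasts make and degrade collagen quickly, and cementoblasts, osteoblasts, osteoclasts, blood vessels, nerve endings and epithelial rests lie in or beside it. A tooth without an opposing tooth carries little chewing load, and its ligament and socket remodel as it erupts further. A scalpel can also bring along gum epithelium, socket bone with its marrow, blood and muscle fibres. Marrow is where granulocytes, red cells and B cells are made, so that genes of their immature stages mark marrow tissue rather than circulating blood.

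Postn and Col1a1, genes of the ligament matrix, read high on all 12 arrays, which does not show how much of a sample was ligament. Postn, which encodes the ligament matrix protein periostin, lay between 11.78 and 13.44 on the log2 scale, and Col1a1, a chain of type I collagen, between 13.30 and 13.98. Both stood far above 5.81, the level under which genes were left out of the tests. Other tissues were present as well and not evenly. Krt13, a keratin of the lining of the mouth, read 7.75 in the right molar of experimental animal 4 and between 12.25 and 13.59 on the other 11 arrays. In the left molar of control animal 5 the mean level was 11.27 over 28 oral epithelium genes and 8.95 over 24 ligament fibroblast genes. These means were 11.28 and 9.08 in the right molar of experimental animal 7. They were 7.27 and 9.83 in the right molar of experimental animal 4. Averaged over 12 skeletal muscle genes, the level was 7.55 in the right molar of experimental animal 7 and between 5.84 and 6.68 elsewhere. The array medians were 6.52 and 6.54 in control animal 4 and between 6.01 and 6.18 in the other 5 animals, a shift that the subtraction within an animal removes where both arrays share it.

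No gene passed the test. Among 13624 genes, limma gave no contrast with a Benjamini-Hochberg adjusted p under 0.05 (0% of genes), and the lowest adjusted p was 0.926. At an unadjusted p under 0.05 there were 504 genes (3.7%), 310 with a positive contrast (2.28%) and 194 with a negative one (1.42%). That count was 910 without control animal 4, 297 without control animal 5 and 192 without control animal 6. The 3 experimental values lay wholly above or below the 3 control values in 1415 genes (10.4%), above in 977 (7.17%) and below in 438 (3.21%). The contrast was above 0 in 63.2% of all genes, with a median of 0.08. With each array centred on its own median the median contrast was 0.22 and the 997 unadjusted calls split into 929 higher and 68 lower, so the sign of small contrasts depends on the scaling and a contrast is read here against the median of all genes. Under that centring the list medians given below were higher by the same step. Those of the ligament, collagen, protease, osteoclast, smooth muscle, mast, nerve, tooth, fat, growth factor and YAP lists went from below to above 0. All values below are therefore differences that did not pass, given with their spread.

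Each group was also set against 0 on its own. By limma, 1217 genes (8.93%) had an unadjusted p under 0.05 in the experimental animals and 277 (2.03%) in the control animals, with none passing adjustment in either group (lowest adjusted p 0.428 and 0.936). Over all genes the median side difference was 0.02, -0.07 and -0.04 in control animals 4, 5 and 6 and 0.01, 0.01 and 0.08 in experimental animals 4, 5 and 7. Whether the 2 groups differ in how many genes show a side difference was not tested.

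**Figure D1:**
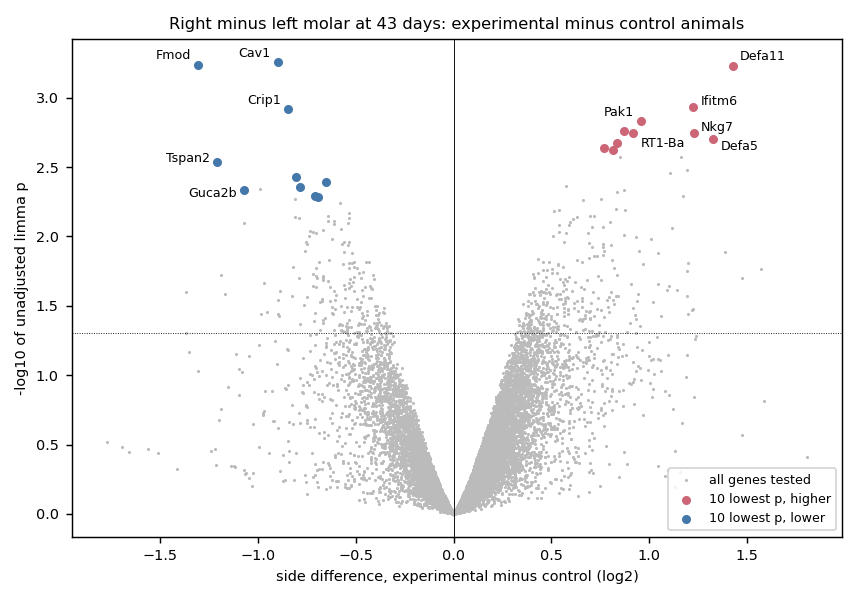
Contrast of the right minus left difference (experimental minus control, log2, horizontal axis) against the -log10 of limma's unadjusted p (vertical axis) for 13624 genes at 43 days. Red and blue points are the 10 genes of lowest p in each direction, and the dotted line marks an unadjusted p of 0.05; no gene passed adjustment.

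Among genes with a negative contrast, the lowest p belonged to Cav1, which encodes caveolin-1, the coat protein of the membrane pits called caveolae. Its level in the left and right molar was 10.98 and 11.29, 10.41 and 10.64, and 10.31 and 10.52 in control animals 4, 5 and 6. It was 10.68 and 10.07, 10.93 and 10.10, and 10.62 and 10.10 in experimental animals 4, 5 and 7. The right molar was thus the higher one in each control animal and the lower one in each experimental animal, and the 3 experimental right molars held the lowest levels of the 12. The contrast was -0.90 with an SE of 0.15 (limma, adjusted p = 0.926). Other caveola genes had smaller contrasts. They were -0.41 for Cav2, -0.17 for Cavin1 and -0.38 for Ehd2, which encodes an ATPase at the neck of caveolae, and only for Ehd2 did the animals not overlap. These 3 genes were picked after their values were seen.

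Fmod encodes fibromodulin, a proteoglycan that binds collagen fibrils in tendon and ligament. In the control animals its left and right levels were 11.42 and 11.37, 8.81 and 9.46, and 9.29 and 9.28. In the experimental animals they were 9.49 and 8.44, 10.01 and 8.81, and 9.36 and 8.28. The experimental side differences of -1.05, -1.20 and -1.08 lay close together, while the control ones were -0.04, 0.65 and -0.01. The contrast was -1.31 with an SE of 0.22, the largest of the 10 genes of lowest p in this direction.

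Another 3 genes of that group were Crip1, S100a6 and Actg2. Crip1, a LIM domain protein, had side differences of 0.29, 0.00 and 0.07 in control and -0.66, -0.90 and -0.62 in experimental animals. S100a6, a calcium binding protein also called calcyclin, had -0.03, 0.04 and -0.19 in control and -0.91, -0.56 and -1.12 in experimental animals. Actg2, the smooth muscle gamma actin, had 0.14, 0.36 and 0.72 against -0.33, -0.30 and -0.50. In each of the 3 genes all experimental right molars stood below their left partners and the groups did not overlap.

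The remaining genes of that group were Tspan2, Lrat, Guca2b, Baalc and Banf2, with contrasts between -1.21 and -0.66. Tspan2 encodes a tetraspanin of the cell membrane, Lrat the enzyme that stores retinol as esters, and Guca2b the gut peptide uroguanylin. Guca2b read 8.08 on the left and 6.66 on the right in experimental animal 5, the widest step of that gene, and its 3 control values were 0.05, 0.28 and 0.31. Banf2 was near even in experimental animal 4, at -0.03, and its contrast of -0.69 came as much from the control animals, at 0.39, 0.32 and 0.51.

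**Figure D2:**
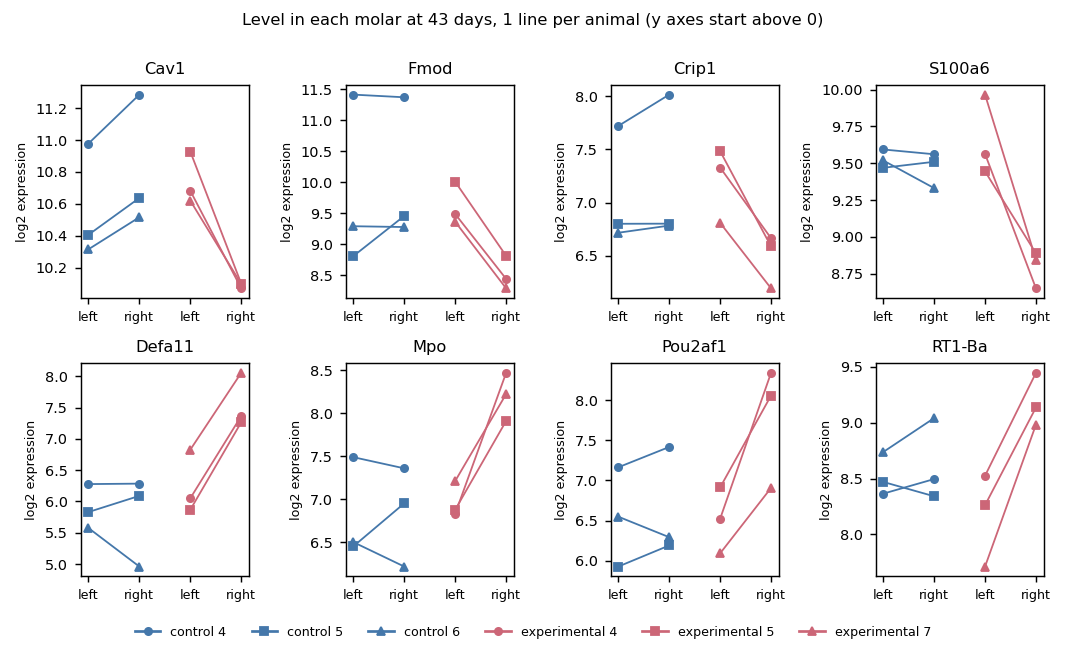
Level (log2) in the left and right molar of each animal at 43 days for 8 genes; a line joins the 2 molars of 1 animal, blue for control and red for experimental. The lines of Cav1, Fmod, Crip1 and S100a6 run down from left to right in all 3 experimental animals, and those of Defa11, Mpo, Pou2af1 and RT1-Ba run up.

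Among genes with a positive contrast, the lowest p belonged to Defa11, a defensin gene; defensins are the antimicrobial peptides that granulocytes pack into granules. Its left and right levels were 6.28 and 6.29, 5.83 and 6.09, and 5.58 and 4.96 in the control animals, against 6.05 and 7.36, 5.87 and 7.27, and 6.83 and 8.06 in the experimental ones. The experimental side differences of 1.31, 1.40 and 1.23 stood above all control ones, and the contrast was 1.43 with an SE of 0.24. Defa5 had side differences of 1.64, 1.60 and 0.69 in experimental and 0.03, 0.07 and -0.17 in control animals, a contrast of 1.33. Defensin genes lie in a cluster of near-identical copies, so which copy a probe set reads is uncertain.

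Ifitm6, an interferon-induced membrane protein gene of myeloid cells, had side differences of 1.35, 1.04 and 0.87 in experimental and 0.17, -0.05 and -0.54 in control animals. Cd177, a surface protein of neutrophils, had 0.48, 0.70 and 0.74 against 0.02, -0.28 and -0.44. Nkg7, a granule protein of cytotoxic lymphocytes, had 1.71, 1.31 and 0.84 against 0.06, 0.28 and -0.17. These genes therefore stood higher on the right in every experimental animal, with no overlap with the control values.

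RT1-Ba encodes the alpha chain of a rat class II histocompatibility molecule, which presents peptides to T cells. Its levels are shown with the other class II genes below. The rest of the group of 10 were Pak1, a kinase that acts on the cytoskeleton, Megf6, a protein with repeats like epidermal growth factor, Nmi, an interferon-induced protein that binds STAT factors, and Gbp6, an interferon-induced GTPase. Their contrasts were 0.96, 0.84, 0.77 and 0.82. Pak1, Megf6 and Nmi stood lower on the right in all 3 control animals and higher in all 3 experimental ones.

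The granulocyte genes were looked at by the stage at which they are made. Of 9 genes of the primary granules, which promyelocytes form, 6 had a positive contrast, a share near the 63.2% of all genes. Their median was 0.40, and it was 0.25 without control animal 4. Mpo, the myeloperoxidase gene, read 7.49 and 7.36, 6.46 and 6.96, and 6.50 and 6.22 in the left and right molars of the control animals. In the experimental animals it read 6.83 and 8.47, 6.88 and 7.91, and 7.21 and 8.22. Its 3 experimental right molars held the highest levels of the 12, and the contrast was 1.20 with an SE of 0.27. Elane, the neutrophil elastase gene, and Ms4a3, a membrane protein of early myeloid cells, had contrasts of 0.84 and 0.81 with no overlap between the groups. The 3 negative members were Ctsc at -0.33, Serpinb1a at -0.13 and Prss57 at -0.08. In these and in Prtn3 and Ctsg, at 0.23 and 0.40, the animals overlapped.

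Of 12 genes listed for the granules made later, 10 had a positive contrast, beside 63.2% of all genes. Their median was 0.70, and it was 0.47 without experimental animal 4 and 0.49 without control animal 6. Defa5, given above with a contrast of 1.33, was counted in this list, and whether it is made at that stage was not tested. Ngp, a granule protein gene picked after its values were seen, had side differences of 1.54, 1.64 and 0.90 in experimental and 0.73, 0.14 and -1.21 in control animals. Mmp8, the neutrophil collagenase gene, had a contrast of 1.19 and Pglyrp1, whose product binds bacterial cell walls, one of 0.73, both with no overlap. Mmp9, the gelatinase B gene that osteoclasts also express, went the other way. It had side differences of -0.53, -0.27 and -0.76 in experimental and -0.10, 0.37 and 0.08 in control animals.

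Among 17 genes of mature neutrophils 16 had a positive contrast, beside 63.2% of all genes, and the animals overlapped in every one. Their median was 0.53, and it was 0.28 without control animal 6. The calprotectin genes S100a8 and S100a9 had contrasts of 0.71 and 0.52, and the receptor genes Csf3r and Cxcr2, which receive granulocyte colony-stimulating factor and chemokines, 0.77 and 0.84. In S100a8 experimental animal 7 had a side difference of -0.13, within the control range, while animals 4 and 5 had 0.81 and 1.01. Over all 38 granulocyte genes the median contrast was 0.65, against 0.08 for all genes, and 7 were higher and 1 was lower with no overlap, beside 7.17% and 3.21% of all genes. The list mean was 0.59, 0.67 and 0.21 in the experimental and 0.18, 0.09 and -0.34 in the control animals. Without control animal 6 the median was 0.37. In pieces of tissue such as these, fewer cells of a type and less RNA per cell cannot be told apart.

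The red cell genes leaned the same way with more overlap. Of 40 genes measured 36 had a positive contrast, beside 63.2% of all genes, with a median of 0.36, and 6 were higher with no overlap, beside 7.17%. Among 13 genes of the red cell membrane and its skeleton the median was 0.81, and it was 0.52 without experimental animal 4 and 0.54 without control animal 6. Ank1, the ankyrin gene that ties the skeleton to the membrane, had side differences of 1.30, 0.66 and 0.41 in experimental and 0.30, 0.33 and -0.48 in control animals. Aqp1, a water channel gene that vessels also express, was at -0.60.

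All 12 genes that regulate or mark young red cells had a positive contrast, beside 63.2% of all genes, with a median of 0.45. That median was 0.74 without control animal 4, 0.33 without experimental animal 4 and 0.34 without control animal 5. Without experimental animal 4, 10 of the 12 were positive. Gata1, the master transcription factor of the lineage, had side differences of 1.62, 0.74 and 0.33 in experimental and 0.45, -0.30 and -0.26 in control animals, so experimental animal 7 stood below control animal 4. Car1, a carbonic anhydrase gene, had 1.36, 1.39 and 0.78 against 0.70, 0.11 and -0.42 with no overlap. Among 12 genes of heme synthesis and iron uptake the median was 0.25, and 0.16 without control animal 5. Slc25a37, which carries iron into mitochondria, had a contrast of 1.20 with overlapping animals.

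Only 3 of the listed globin genes and their chaperone were measured by a probe set with 1 name above the filter, and alpha and beta globin genes have near-identical copies, so their values are uncertain. Hba-a1 had a contrast of 0.36, Hbb-b1 of 0.30 and Ahsp, the chaperone of alpha globin, of 1.08, and the groups overlapped in each. Over all red cell genes the list mean was 0.93, 0.59 and 0.22 in the experimental and 0.41, 0.07 and -0.23 in the control animals. The highest control animal therefore stood above the lowest experimental one. The median was 0.57 without experimental animal 7 and 0.335 without control animal 6.

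**Figure D3:**
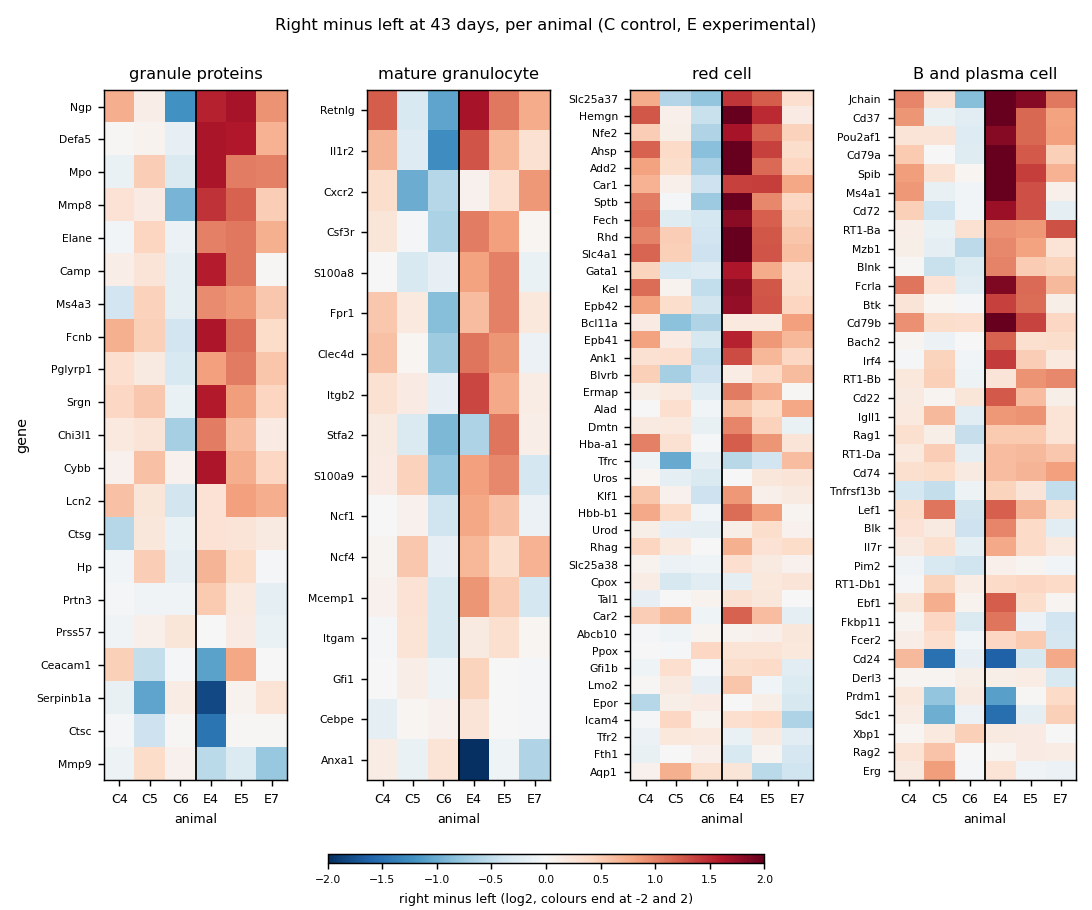
Right minus left difference (log2) of each measured granulocyte, red cell, B cell and plasma cell gene in the 6 animals; red is higher on the right, blue higher on the left, and genes are ordered by contrast. Columns E4 and E5 hold the deepest red, E7 is paler, and C6 is mostly blue. Column E4 also holds the deepest blue, with Anxa1 at -2.14 and Serpinb1a at -1.81. The median contrasts of the granulocyte and red cell genes are 0.65 and 0.36.

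The list of mature B cell genes held 18 measured members, 5 of them class II genes (Cd74, RT1-Ba, RT1-Bb, RT1-Da and RT1-Db1) that other antigen-presenting cells also make. All 18 had a positive contrast, beside 63.2% of all genes, with a median of 0.81. The members higher with no overlap numbered 5, beside 7.17% of all genes, and 3 of these were class II genes (Cd74, RT1-Ba and RT1-Da), the others being Blnk and Pou2af1. Described apart, a split made after the values were seen, the 13 other genes had a median of 0.87 and the 5 class II genes one of 0.44. The mean side difference of the 13 was 1.63, 1.01 and 0.30 in the experimental and 0.52, 0.05 and -0.09 in the control animals, so that experimental animal 7 stood below control animal 4. Over all 18 the mean side difference was 1.33, 0.92 and 0.44 in the experimental and 0.42, 0.13 and -0.05 in the control animals, and without experimental animal 4 the median was 0.52.

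Pou2af1, a coactivator that works with octamer factors in B cells, read 7.16 and 7.42, 5.93 and 6.19, and 6.55 and 6.29 in the control animals. In the experimental animals it read 6.52 and 8.34, 6.91 and 8.06, and 6.09 and 6.91. Its contrast was 1.17 with an SE of 0.29. Blnk, the adaptor that links the B cell receptor to its kinases, had side differences of 0.99, 0.50 and 0.44 in experimental and 0.02, -0.44 and -0.27 in control animals. Tnfrsf13c, the receptor for the survival factor BAFF, had a contrast of 1.39 with overlapping animals and was picked after its values were seen.

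Genes of B cell precursors leaned less, with 6 of 9 positive, a share near the 63.2% of all genes. Their median was 0.34, and it was 0.19 without experimental animal 4 and 0.05 without control animal 6. Bach2, the member of lowest p, had a contrast of 0.64 and was the only member with no overlap. Rag1, which cuts the receptor genes for recombination, and Igll1, part of the surrogate light chain, had contrasts of 0.45 and 0.47 with overlapping animals. The 3 negative members were Rag2 at -0.15, Erg at -0.30 and Cd24 at -0.06. Among 10 plasma cell genes 6 were positive, beside 63.2% of all genes. Their median was 0.21, and it was 0.15 without control animal 6 and 0.38 without experimental animal 7. The 4 negative members were Xbp1, Prdm1, Derl3 and Sdc1, with contrasts between -0.12 and -0.09 and overlapping animals. Jchain, which joins antibody units, had side differences of 2.27, 1.81 and 1.06 in experimental and 0.97, 0.30 and -0.85 in control animals, a contrast of 1.57. Mzb1, a chaperone of antibody folding, had 0.96, 0.80 and 0.27 against 0.12, -0.19 and -0.52.

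Class II genes are switched on by a factor, CIITA, that docks on proteins bound to short promoter elements called the X and Y boxes. The promoters of 4 rat class II genes are shown because RT1-Ba was among the 10 genes of lowest p and its relatives differed in the size of their contrast. Each run is the stretch of 92 bases that ends at or before the gene's start, from RefSeq on build GRCr8, with the letters of the Y box CTGATTGG and of an X box core CTAGCAAC in capitals where a search of both strands found them. The genes were picked for display after their values were seen.
RT1-Ba: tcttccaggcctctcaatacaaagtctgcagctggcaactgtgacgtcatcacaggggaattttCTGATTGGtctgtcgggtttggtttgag
RT1-Bb: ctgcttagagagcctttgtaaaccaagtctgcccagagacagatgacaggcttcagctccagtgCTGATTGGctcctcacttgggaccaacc
RT1-Da: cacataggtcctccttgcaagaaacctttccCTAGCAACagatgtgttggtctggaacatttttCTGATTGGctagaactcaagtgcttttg
RT1-Db1: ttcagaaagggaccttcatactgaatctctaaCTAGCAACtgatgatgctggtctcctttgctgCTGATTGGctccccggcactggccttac

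These windows lie upstream of the genes at chr20:4576947-4577038 on the plus strand for RT1-Ba, chr20:4604155-4604246 on the minus strand for RT1-Bb, chr20:4515299-4515390 on the plus strand for RT1-Da and chr20:4560218-4560309 on the minus strand for RT1-Db1. The Y box starts 46, 64, 52 and 83 bases before the gene's start in that order. The exact X core letters were found in RT1-Da and RT1-Db1, with 25 and 24 bases between them and the Y box. Near matches were not searched for, such as ctggcaac in the RT1-Ba run. A run without capitals at that place is therefore not shown to lack an X box. The search covered a longer upstream window of each promoter, from which the runs above were cut around the Y box. In such longer windows of 33469 RefSeq rat promoters, 3.19% hold the Y box letters, 1.06% the X core letters and 0.0388% both. Among the 12173 promoters of tested genes the shares were 4.39%, 1.13% and 0.0575%. Neither was found in the longer windows of RT1-DMa or Cd74. A match is a description of letters and does not show that a factor binds.

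The class II genes had contrasts of different size. RT1-Ba read 8.37 and 8.50, 8.47 and 8.34, and 8.74 and 9.04 in the control animals and 8.53 and 9.45, 8.26 and 9.14, and 7.71 and 8.98 in the experimental ones. Its side differences of 0.92, 0.87 and 1.27 in experimental animals stood above 0.13, -0.13 and 0.30 in control animals, and the contrast was 0.92 with an SE of 0.19. The partner chain gene RT1-Bb had a contrast of 0.51 with overlapping animals.

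RT1-Da and RT1-Db1, the chains of the other class II molecule, had contrasts of 0.44 and 0.21, and only the first did not overlap. RT1-DMa and RT1-DMb, whose product helps load peptides, had contrasts of 0.43 and 0.56, both with no overlap. Cd74, the invariant chain that guards the groove, had 0.62, 0.69 and 0.82 in experimental and 0.32, 0.37 and 0.18 in control animals. It stood higher on the right in all 6 animals, and more so in the experimental ones. Ciita had a contrast of 0.20 with overlapping animals. Class II molecules are also made by macrophages and dendritic cells, so these genes are not particular to B cells.

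Among 12 T and NK cell genes 10 had a positive contrast, beside 63.2% of all genes. Their median was 0.31, and it was 0.12 without experimental animal 4 and 0.59 without experimental animal 7. Lck, the kinase at the T cell receptor, had side differences of 0.39, 0.42 and 0.31 in experimental and -0.30, -0.12 and -0.19 in control animals. Every experimental right molar thus stood above its left partner and every control one below. Cd8a and Cd8b had contrasts of 0.69 and 0.70 with overlapping animals. The 2 negative members were Cd247 at -0.10 and Zap70 at -0.03, and Cd5 and Xcl1 were at 0.005 and 0.02, all with overlapping animals.

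Macrophage and monocyte genes were mixed, with 12 of 21 positive, beside 63.2% of all genes. Their median was 0.10, beside 0.08 for all genes. It was between 0.01 and 0.34 with 1 animal left out, lowest without control animal 6 and highest without experimental animal 7. The members with no overlap on the high side were Ly86, Ccr2 and Aif1, with contrasts of 0.94, 1.02 and 0.52, and Cd14 had none on the low side, at -0.54, beside 7.17% and 3.21% of all genes. Ccr2 is the chemokine receptor of young monocytes and Cd14 helps sense bacterial lipopolysaccharide. The complement genes C1qa, C1qb and C1qc and the genes Msr1, Marco, Siglec1 and Ms4a7, all expressed by tissue macrophages, had contrasts between -0.27 and -0.10 with overlapping animals, and the sign of C1qa, C1qb, C1qc, Marco and Siglec1 changed with the scaling or on leaving out 1 animal. Cd14 and these 7 genes were picked after their values were seen. Of 13 megakaryocyte and platelet genes 10 were positive, beside 63.2% of all genes. Their median was 0.44, and it was 0.23 without experimental animal 4 and 0.70 without experimental animal 7. Gp1ba, part of the platelet receptor for von Willebrand factor, was at 0.65, while Ppbp, a platelet chemokine gene, was at -1.37 with -1.72, 0.15 and -1.45 in experimental and 0.60, 0.03 and 0.46 in control animals. Mast cell genes had a median of -0.02.

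Interferon response genes leaned up, with 14 of 17 positive, beside 63.2% of all genes. Their median was 0.41, and it was 0.20 without experimental animal 4. Stat2, which carries the interferon signal to the nucleus, had side differences of 0.47, 0.14 and 0.39 in experimental and -0.06, -0.33 and 0.05 in control animals. Inflammatory cytokine and mediator genes had a median of 0.07. Nos2, the inducible nitric oxide synthase gene, had 1.49, 1.15 and -0.19 in experimental and 0.08, -0.90 and -0.39 in control animals, and Ccl2, a monocyte chemokine gene, had a contrast of -0.42 with no overlap.

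**Figure D4:**
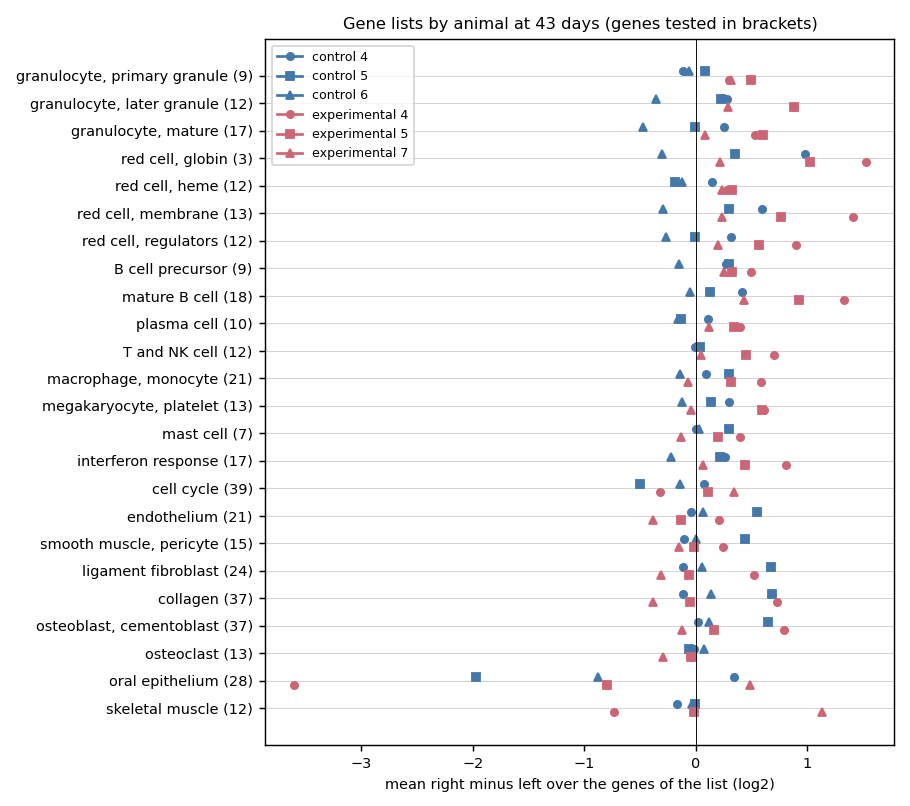
Mean right minus left difference (log2) over the tested genes of each list, 1 point per animal at 43 days, blue for control and red for experimental. Red points lie to the right of blue ones for the primary granule and heme lists. They do so only barely for the later granule, mature B cell, plasma cell and T and NK cell lists. Red and blue points overlap for most matrix lists, and red ones spread from -3.61 to 0.49 for oral epithelium.

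Cell cycle genes had a positive contrast in 35 of 39, beside 63.2% of all genes, with a median of 0.24. Yet the list means overlapped, at -0.32, 0.11 and 0.35 in experimental and 0.07, -0.50 and -0.14 in control animals. Tyms, which makes thymidylate for DNA synthesis, had side differences of 0.71, 0.38 and 0.33 in experimental and -0.05, -0.13 and -0.29 in control animals. Mki67, the proliferation marker Ki-67, had 0.10, 0.28 and 0.36 against -0.16, -0.47 and -0.15. The list median was 0.06 without control animal 5, 0.12 without experimental animal 7, 0.39 without control animal 4 and 0.44 without experimental animal 4.

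Endothelial genes leaned down, with a negative contrast in 20 of 21, beside 36.8% of all genes. Their median was -0.26, relative to 0.08 for all genes. Beside Cav1, the members with no overlap were Cd34, a sialomucin of vessel lining and progenitor cells, and Adgrl4, an adhesion receptor, with contrasts of -0.72 and -0.62. Cd34 had side differences of -0.38, -0.12 and -0.98 in experimental and 0.02, 0.26 and 0.39 in control animals. The list means overlapped, at 0.21, -0.13 and -0.38 in experimental and -0.04, 0.55 and 0.07 in control animals, and the median was -0.11 without control animal 5, -0.10 without experimental animal 7 and -0.47 without experimental animal 4. Smooth muscle and pericyte genes had a median of -0.02.

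The genes of the ligament's own matrix lay below the median of all genes, 0.08, but this turned on single animals. All genes had a positive contrast in 63.2%. Of 24 ligament fibroblast genes 8 had a positive contrast, with a median of -0.08, and of 37 collagen and collagen-processing genes 10, with a median of -0.13. With the arrays centred on their medians they were 0.06 and 0.01, beside 0.22 for all genes. Both medians were also above 0 without control animal 5, at 0.22 and 0.11, and without experimental animal 7, at 0.11 for each. Aspn, the small proteoglycan asporin, had side differences of -0.24, -0.75 and -1.60 in experimental and -0.34, 0.75 and 0.49 in control animals, a contrast of -1.17. Postn had a contrast of -0.54, Col1a1 of -0.06 and Dcn, the decorin gene, of 0.01, all with overlapping animals, and the sign of the last pair changed with the scaling.

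A few collagen genes did stand apart on the low side. Col5a3, a minor fibril chain, had side differences of -0.52, -0.49 and -0.66 in experimental and -0.04, -0.13 and 0.12 in control animals, a contrast of -0.54 with an SE of 0.15. Adamts3, which trims procollagen ends, was at -0.70 and Col18a1, a basement membrane collagen, at -0.33, each with no overlap. These are 3 of 37 genes, beside 3.21% of all genes lower with no overlap. Matrix protease genes had a median of -0.08.

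Bone and cementum genes had a positive contrast in 19 of 37, beside 63.2% of all genes, and a median of 0.01, beside 0.08. Fam20c, a kinase of secreted mineral proteins, had a contrast of -0.61 with no overlap. Panx3, a channel protein of bone-forming cells, had 1.98, 0.45 and 0.39 in experimental and -0.11, 0.28 and 0.22 in control animals. Osteoclast genes had a median of -0.10, with Tm4sf19 at -0.47 and no overlap. Sost, the inhibitor made by osteocytes, had a contrast of -0.31 with overlapping animals.

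Among 45 genes of the Wnt pathway the median was 0.00, with 7 higher and 1 lower with no overlap, beside 7.17% and 3.21% of all genes. Sfrp1, a secreted Wnt antagonist, had side differences of 0.24, 0.24 and 0.72 in experimental and -0.04, -1.03 and -0.18 in control animals. Fzd7 and Lrp6, parts of the Wnt receptor, had contrasts of 0.44 and 0.38 with no overlap. Genes of the TGF-beta and BMP pathway had a median of 0.02, those of the IGF, FGF, PDGF and VEGF systems -0.07, and targets of the stretch-sensitive YAP factors -0.05. Of 24 immediate early genes, which cells switch on within minutes of a stimulus, 20 had a positive contrast, beside 63.2% of all genes, with a median of 0.14. That median was 0.02 without experimental animal 4, 0.06 without control animal 5, 0.24 without control animal 4 and 0.29 without experimental animal 7.

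Within the growth factor list, Fgfr3, an FGF receptor gene, had side differences of 0.88, 0.41 and 0.22 in experimental and -0.12, -0.58 and -0.11 in control animals. Vegfc, the growth factor of lymphatic vessels, had -0.36, -0.10 and -0.21 against 0.11, 0.27 and 0.23. Both stood apart without overlap, in opposite directions. Bmp7, a bone morphogenetic protein gene, was higher on the right in all 6 animals and had a contrast of 0.35.

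Markers of tissues beside the ligament moved with single animals. The mean side difference of 28 oral epithelium genes was -3.61, -0.80 and 0.49 in experimental and 0.35, -1.97 and -0.88 in control animals. The median contrast of that list was -0.58, with 5 of 28 positive, and it was 0.43, with 25 of 28 positive, without experimental animal 4. The gene of most negative contrast, Cnfn, a cornified envelope protein, had 12.45 on the left and 6.61 on the right in that animal and a contrast of -1.78. Krt76, a keratin of the palate and gum, had the largest positive contrast, 1.81, with side differences of 0.18, -5.91 and -5.24 in control and -4.72, -2.11 and 1.29 in experimental animals. The groups overlapped widely in both genes.

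Skeletal muscle genes had a mean side difference of -0.73, -0.01 and 1.13 in experimental and -0.17, -0.01 and -0.04 in control animals, and their median contrast of 0.26 was -0.21 without experimental animal 7. The part of this uneven epithelium and muscle in the results above was not tested. The medians of the granulocyte, red cell and mature B cell lists were 0.44, 0.38 and 0.52 without experimental animal 4 and 0.86, 0.57 and 1.05 without experimental animal 7.

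The remaining lists are given by their medians, beside 0.08 for all genes. Cartilage genes had a median of -0.20, nerve and Schwann cell genes -0.05, tooth pulp and enamel genes -0.12 and fat cell genes -0.14. Genes of blood stem and progenitor cells had a median of 0.07. Dspp, the dentin gene that marks odontoblasts, had a side difference of 1.93 in control animal 5 and between 0.17 and 0.93 in the other 5.

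The same contrast could be formed at 31 days from animals that took no part in the comparison above, 2 experimental and 3 control. By limma on all 11 animals with both molars, no gene passed adjustment at 31 days (0%, lowest adjusted p 0.588), 676 had an unadjusted p under 0.05 (4.96%), and the contrast was above 0 in 75% of genes with a median of 0.18. No gene passed in the test of the difference between the ages (lowest adjusted p 0.9999), where 280 had an unadjusted p under 0.05 (2.06%). The contrasts of both ages had the same sign in 67.4% of genes. The 31-day values turn on control animal 2, whose left molar stood far above its right one in blood cell genes. Its mean side difference was -1.39 over the granulocyte, -1.60 over the red cell and -1.55 over the mature B cell genes.

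With that animal the 31-day medians of these 3 lists were 0.04, 0.28 and 0.47. Without it they were -0.36, -0.19 and -0.19, opposite to the 43-day medians of 0.65, 0.36 and 0.81. Defa5 gives the plainest case. Its side differences at 31 days were -1.66 and -1.79 in experimental and 1.02, -4.30 and 1.14 in control animals 1, 2 and 3. Without control animal 2 its 31-day contrast was -2.80 with an SE of 0.30 (limma, adjusted p = 0.0432), and the difference between the ages passed for Defa5 (4.13, adjusted p = 0.013) and Defa11 (3.02, adjusted p = 0.0372). Leaving that animal out was chosen after its values were seen.

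**Figure D5:**
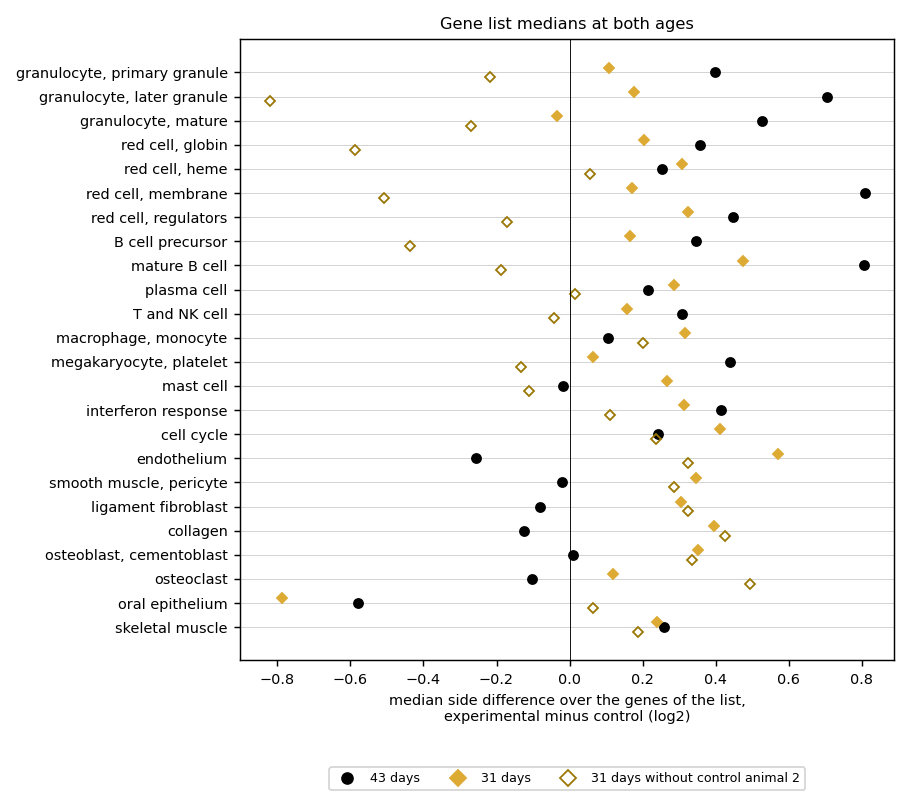
Median contrast (log2) over the tested genes of each list at 43 days (black) and at 31 days with all animals (filled) and without control animal 2 (open). The endothelium list lies at -0.26 at 43 days and at 0.57 and 0.32 at 31 days; the primary granule, later granule and red cell membrane lists change sides at 31 days when that animal is left out.

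Other lists differed between the ages whether or not that animal was kept, though the difference was not tested for a list. The endothelial median was 0.57 at 31 days, with 20 of 21 genes positive, and 0.32 without control animal 2, against -0.26 at 43 days. The collagen median was 0.39 and 0.42, with 35 and 36 of 37 genes positive, against -0.13. That 43-day value was 0.11 without control animal 5 and 0.11 without experimental animal 7. Over all genes at 31 days 75% were positive with a median of 0.18, and 70.4% with 0.12 without control animal 2. Cell cycle genes were positive at both ages, with medians of 0.41 and 0.24 at 31 days against 0.24 at 43 days.

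Among single genes, Megf6 had about the same contrast at both ages, 1.08 at 31 days and 0.84 at 43 days. Its 31-day side differences were 0.62 and 1.17 in experimental and -0.29, -0.30 and 0.04 in control animals 1, 2 and 3. It therefore stood higher on the right in all 5 experimental animals and in 1 of 6 control animals. Pak1 had contrasts of 0.64 and 0.96 and Crip1 of -0.42 and -0.85 at 31 and 43 days. Cav1 had 0.21 at 31 days, with side differences of -0.04 and 0.15 in experimental and -0.05, -0.25 and -0.17 in control animals, and the difference between the ages did not pass (limma, adjusted p = 0.9999). Panx3 had a contrast of 2.69 at 31 days against 0.81 at 43 days.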

How the data were processed

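Affymetrix whole-transcript arrays measured total RNA of 12 molar ligament samples of 43 days; 11 arrays of 31 days entered only the comparison of ages. The deposited values are log2 expression per probe set; RMA and Partek are named per the submitters' processing notes, and their settings and versions are not given in the sources used here. Of 36685 probe sets, 18511 carry 1 gene symbol in the platform annotation, 575 several and 17599 are not listed there, and the probe set of highest mean stood for each of 18166 genes. Genes with a mean under the 25th percentile (5.81) were left out.

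Right minus left differences per animal were fitted with limma 3.58.1 (R 4.3.3; lmFit, eBayes) and p-values adjusted by Benjamini-Hochberg over 13624 genes, threshold 0.05. No series text states this test. After group means were removed, the molars of 1 animal correlated across genes at 0.46, 0.15 and 0.23 in control animals 4, 5 and 6 and at -0.42, 0.52 and 0.25 in experimental animals 4, 5 and 7. Left and right molars of different animals of a group correlated at -0.63 to 0.46, so these correlations do not show the pairing. It comes from the title numerals, taken as the animal.

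Gene lists and members were chosen with earlier results of these data known. Named genes are the 10 of lowest p in each direction, up to 4 members of lowest p per list and the largest contrast each way, passing over placeholder, olfactory and vomeronasal genes; others are said to be picked after their values were seen, as were Cav2, Cavin1, Ehd2, RT1-Bb, RT1-Da, RT1-Db1, RT1-DMa, RT1-DMb, Ciita, Krt13, S100a9, Postn, Col1a1 and Dcn. Members named because they were negative, near 0 or overlapping in a list were also picked after their values were seen. Lists are described by counts and medians without a test. The alternatives were quantile normalization, median centring, other filters, averaged probe sets, other designs, trend and robust eBayes, and leaving out each animal. Among 13630 tested probe sets without a single symbol, none passed and 6.42% had an unadjusted p under 0.05.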

Additional observations from a re-analysis of the deposited data

How the results depend on the processing

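No gene passed adjustment in the 43-day contrast, or in either group's side difference, under any alternative tried. The count at an unadjusted p under 0.05, 504 for the contrast, 1217 for experimental and 277 for control animals, moved with the filter and the design. It was 997 for the contrast with median centring; 758 and, for control animals, 504 with no filter; 298, 800 and 130 with genes under the median left out; 330 for the contrast in the fit of all 11 animals; and 181 for control animals with trend and robust eBayes. Taking the 12 arrays as independent, with no replicate block for the animal, gave 121, 390 and 77; with the animal as a random block on all 23 arrays the estimated correlation was 0.50 and the contrast had 438. Leaving out 1 animal gave 192 to 910, 670 to 1841 and 79 to 657. At 31 days it gave 178 to 2017 genes at an unadjusted p and 0 to 1 after adjustment, and for the difference between ages 180 to 612 and 0 to 2, the adjusted calls only without control animal 2.

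Median centring moved the median of all genes to 0.22 and the medians of the primary granule (0.54), heme (0.39), progenitor (0.21), osteoclast (0.034), Schwann cell (0.086), fat cell (2e-04), TGF-beta (0.16) and YAP (0.089) lists. Quantile normalization gave 0.51 for primary granule and -0.047 for fat cell genes. With genes under the median left out the medians were 0.68 for primary granule, 0.82 for red cell regulator, -0.090 for plasma cell, 0.25 for progenitor, 0.17 for cartilage, 0.17 for Schwann cell and -0.24 for fat cell genes. Leaving out 1 animal moved the medians of primary granule genes to between 0.25 and 0.59, of all granulocyte genes to between 0.37 and 0.86, of B cell precursor genes to between 0.051 and 0.47, of plasma cell genes to between 0.15 and 0.38, of T and NK cell genes to between 0.12 and 0.59, of growth factor genes to between -0.15 and 0.12 and of fat cell genes to between -0.13 and -0.029. Single contrasts that changed sign were Col1a1 (0.00050 with quantile normalization, 0.080 with centring, -0.21 to 0.067 without 1 animal), Dcn (-0.013 with quantile normalization, -0.34 to 0.33 without 1 animal), Cnfn (-2.92 to 0.26), Krt13 (-2.72 to 0.43) and Dspp (-0.70 to 0.11), the last 3 only on leaving out 1 animal, experimental animal 4 for the keratin and Cnfn and control animal 5 for Dspp. The macrophage genes with small contrasts changed sign as well: Siglec1 (0.0074 with quantile normalization, -0.35 to 0.017 without 1 animal), C1qc (0.043 with centring, -0.32 to 0.18), Marco (0.013 with centring), C1qa (-0.46 to 0.13) and C1qb (-0.31 to 0.079). With 3 animals a group and no background probes in the table, neither small contrasts nor the detection of dim genes can be settled here.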
